A study of Mus musculus with 14 samples.

Results

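The fatty acid desaturases of the Scd and Fads families were described in the ileum mucosa of mice with and without the nuclear receptor corepressor NCoR1 in intestinal epithelial cells (IECs). The members were the rows of the count table named Scd1, Scd2, Scd3, Scd4, Fads1, Fads2, Fads3 and Fads6, and all 8 names were found, each on 1 of 54532 rows. WT mice carried the floxed NCoR1 alleles without Cre, and IKO mice carried the same floxed alleles with Cre recombinase under the villin promoter, which is active in the gut epithelium. All were male, 7 to 8 weeks old when the dietary studies began, and were kept on a high-fat diet (HFD) for 15 weeks. There were 7 WT and 7 IKO mice with 1 library each. The labels call the cells IECs, but the ileum was scraped after washing, so the RNA is that of the whole mucosa, and cells that lack villin-driven Cre contribute reads.

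Stearoyl-CoA desaturases, encoded by the Scd genes, place a double bond in the middle of a saturated acyl chain and so turn stearate into oleate and palmitate into palmitoleate. The products are used for triglycerides, cholesteryl esters and phospholipids, and Scd1 is a known target of the liver X receptor (LXR) and of SREBP-1c, the product of Srebf1. The Fads enzymes instead act on polyunsaturated fatty acids from the diet. FADS2 desaturates linoleate and alpha-linolenate, ELOVL5 lengthens the product, and FADS1 then gives arachidonate and eicosapentaenoate. FADS3 has been linked to sphingoid bases, whereas the substrate of FADS6 is less well known. The SCD enzymes receive their electrons from cytochrome b5, and FADS1, FADS2 and FADS3 carry a domain of the same kind. NCoR1 itself binds nuclear receptors that lack an activating ligand and recruits histone deacetylase to their targets.

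The 4 Scd genes lie within 204422 bases of chromosome 19 (mm10, chr19:44203288-44407709), and their coding sequences are near copies of one another, so the sequences are shown before the values that depend on telling them apart. In the GENCODE M21 transcripts of GRCm38, the coding sequences of Scd1 and Scd2 were identical at 90.7% of 1067 aligned bases. Identity was 91.5% for Scd1 and Scd3, 86.1% for Scd1 and Scd4, and 84.5% for Scd2 and Scd4, the lowest of the 6 pairs. The stretch of 60 coding bases below lies in exon 4, where Scd1 and Scd2 are most alike. It covers chr19:44401827-44401886 in Scd1 (minus strand), chr19:44299621-44299680 in Scd2, chr19:44235783-44235842 in Scd3 and chr19:44338922-44338981 in Scd4 (plus strand). Capitals mark bases that differ from Scd1, and there was 1 such base, in Scd3:
Scd1: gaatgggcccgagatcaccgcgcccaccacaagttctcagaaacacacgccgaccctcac
Scd2: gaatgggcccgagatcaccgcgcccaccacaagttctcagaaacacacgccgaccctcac
Scd3: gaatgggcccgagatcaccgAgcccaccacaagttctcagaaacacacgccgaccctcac
Scd4: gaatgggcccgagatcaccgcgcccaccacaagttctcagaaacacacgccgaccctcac

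In exon 2 the same genes can be told apart. The 60 bases in which Scd1 and Scd2 are least alike were identical at 44 positions. They lie at chr19:44406620-44406679 in Scd1 (minus strand), chr19:44294994-44295053 in Scd2, chr19:44215492-44215551 in Scd3 and chr19:44334069-44334128 in Scd4 (plus strand). Capitals again mark differences from Scd1, which numbered 16 in Scd2, 3 in Scd3 and 14 in Scd4:
Scd1: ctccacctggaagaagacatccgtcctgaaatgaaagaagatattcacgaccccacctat
Scd2: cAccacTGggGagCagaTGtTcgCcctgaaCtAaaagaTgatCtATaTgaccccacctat
Scd3: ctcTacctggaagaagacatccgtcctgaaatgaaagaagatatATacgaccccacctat
Scd4: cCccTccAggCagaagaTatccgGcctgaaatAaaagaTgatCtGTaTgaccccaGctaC

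Over whole transcripts, few positions could confuse a read of 150 bases, the length sequenced. Of the 4683 windows of that length in the Scd1 transcript, 36 (0.769%) occurred unchanged in another Scd transcript, against 0 of 5306 in Scd2 and 0 of 3157 in Scd4. The longest identical stretch was 147 bases between Scd1 and Scd2 and 185 bases between Scd1 and Scd3. How reads with several matches were counted is not given in the sources used here, so the values of Scd3 in particular are uncertain. The Fads genes were less alike, with 66.3% to 72.8% identity over aligned coding bases, and 0 of their 150-base windows were shared.

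The libraries held 14749669 to 18744592 counts in WT and 15822384 to 21557468 in IKO mice. Levels are given as CPM, the counts as a share of the library total after scaling by TMM factors. Ncor1 was 135 ± 31.3 CPM in WT and 50.6 ± 11.0 CPM in IKO mice (SD, n = 7 each), with all IKO mice below all WT mice, and its counts cover the whole gene, not the deleted part alone. In IKO 4, 50.3% of the counts fell on mitochondrially encoded genes. This share was 23.9% in WT 3 and 3.49% to 10.3% in the other 12 libraries. The 6 smooth muscle markers summed to 10860 CPM in WT 4, whereas the other WT mice had at most 62.4 CPM. Results that rest on IKO 4 or WT 4 are therefore also given without them.

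Of the 8 desaturases, Scd1 and Scd2 had far higher means in IKO mice. The levels of the genotypes overlapped for every member but Scd1. A total of 6 members passed the filter on low counts, and Scd3 and Fads6 did not. The quasi-likelihood test of edgeR called 2 members at an adjusted p under 0.05, Scd1 and Scd2, both higher in IKO mice, and 0 lower. Among all 13846 genes tested, 8.67% were called in either direction, 4.38% higher and 4.28% lower. The family was chosen by the fold changes of its genes in this same contrast of IKO with WT, so these fold changes and p-values are a description. The median log2 fold change of the 6 members tested was 0.67, and that of all genes tested was -0.09.

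**Figure D1:**
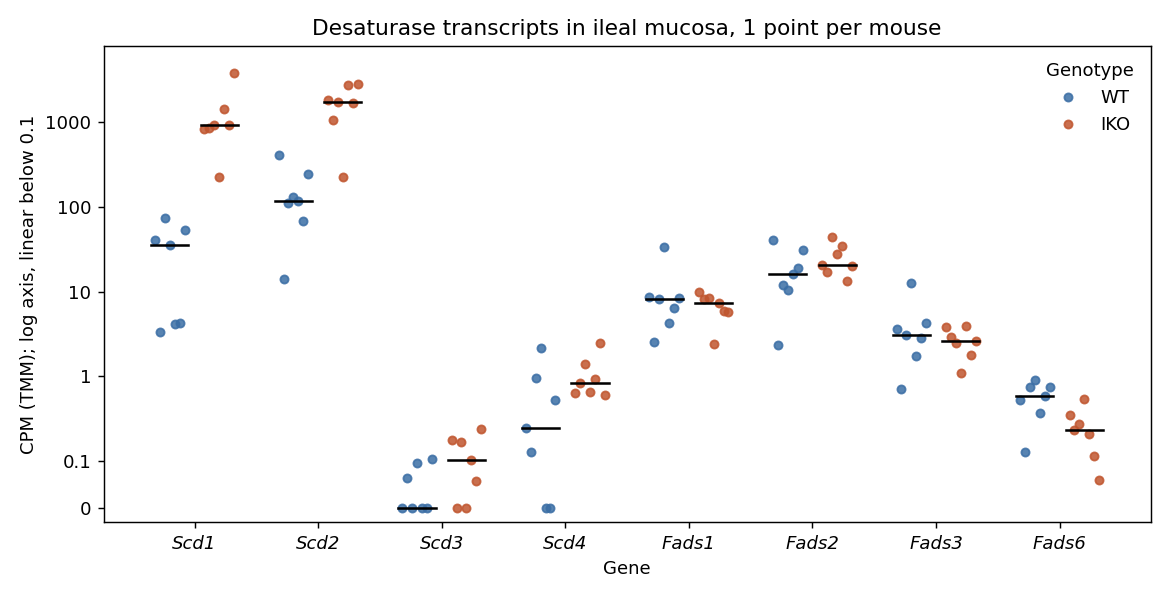
CPM of the 8 desaturases on a log axis that is linear below 0.1, with 1 point per mouse, WT in blue and IKO in orange, and a black bar at the median of 7 mice. Scd1 is the one member whose points do not overlap, with 226 CPM in the lowest IKO and 74.2 CPM in the highest WT mouse.

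Scd1, the main stearoyl-CoA desaturase of liver and adipose tissue, showed the largest fold change toward higher levels in IKO mice of all 13846 genes tested. Its CPM in WT 1 to WT 7 were 41.1, 3.35, 74.2, 35.4, 4.13, 4.22 and 53.7. In IKO 1 to IKO 7 they were 829, 862, 932, 226, 1454, 920 and 3871. All IKO mice lay above all WT mice, and the lowest IKO mouse was 3.05 times the highest WT mouse. Such separation in the higher direction was seen for 1.83% of the genes tested, and in the lower direction, in which 0 members separated, for 1.26%. The mean was 30.9 ± 28.0 CPM in WT and 1299 ± 1189 CPM in IKO mice (SD, n = 7 each), with a log2 fold change of 5.40 (SE 0.85, 95% confidence interval 3.55 to 7.24) or 42.1-fold (edgeR, adjusted p = 0.00268). The gene lies at chr19:44394451-44407709 on the minus strand. In this bulk tissue, a higher share of cells that express a gene and more RNA per cell cannot be told apart.

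The spread of Scd1 was wide within both genotypes. The highest WT mouse had 21.9 times the level of the lowest in FPKM, the deposited length-scaled values, and the highest IKO mouse 17.1 times. IKO 7 stood highest, and without it the IKO mean was 871 ± 391 CPM (SD, n = 6) and the log2 fold change 4.82 (SE 0.77, edgeR adjusted p = 0.00485). IKO 4 stood lowest. Without IKO 4, the lowest IKO mouse was 11.2 times the highest WT mouse, and the log2 fold change was 5.59 (SE 0.82, edgeR adjusted p = 0.00160).

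Markers of other cells were read beside Scd1. Among the markers tested from the 13 lists, 0 were called at an edgeR adjusted p under 0.05. Over all genes tested, 8.67% were called. In the glia and neuron and the pancreatic acinar lists, 0 markers passed the filter on low counts, so they could not be called. Of the adipocyte markers, 2 of 6 were tested, both with a log2 fold change above 0, and the list summed to 22.0 to 171 CPM in WT and 82.9 to 177 CPM in IKO mice. Most of this sum was Cidec, a lipid droplet protein. Cfd, the adipokine adipsin, was at 18.8, 2.89, 0.443, 5.14, 9.03, 0.115 and 0.542 CPM in IKO 1 to IKO 7 and at most 1.84 CPM in WT mice. Adipoq, which encodes adiponectin, was at 5.26, 0.118, 0.111, 1.64, 4.18, 0.0574 and 0.361 CPM in IKO 1 to IKO 7 and at most 1.85 CPM in WT mice. IKO 1 and IKO 5 were the highest for both genes and for Plin1 and Retn. IKO 7, the mouse with the highest Scd1, was below 1 CPM for these genes. Lep was instead highest in WT 4, at 5.98 CPM against at most 1.52 CPM in IKO mice, and Cidec in WT 2, at 171 CPM. The part of adipocytes in the Scd1 values was not tested.

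All 5 enterocyte markers had a log2 fold change above 0, with sums of 15430 to 85640 CPM in WT and 39740 to 64340 CPM in IKO mice. Other lists pointed lower, with 0 markers above 0 of 5 for crypt stem and cycling cells, 4 for macrophages, 4 for T cells and 3 for B and plasma cells. The same held for 6 tested smooth muscle and 5 tested fibroblast markers. Above 0 were 1 of 3 endothelial, 1 of 2 ileal enterocyte and 1 of 1 tested hepatocyte markers. The ileal marker Fabp6 ranged from 186 to 7661 CPM in WT and from 24.7 to 6143 CPM in IKO mice. The crypt markers summed to 102 to 335 CPM in WT and 78.4 to 207 CPM in IKO mice, and the B and plasma cell markers to 88.3 to 558 and 82.1 to 421 CPM.

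The WT mice with the lowest Scd1, WT 2, WT 5 and WT 6, were also the lowest or the highest for some markers. Of 55 markers, these were the 3 lowest WT mice for 15 and the 3 highest for 3. The same share over all genes tested was not computed, so these counts are a description and cannot be set against it. The 15 were 5 of 6 smooth muscle, 5 of 6 fibroblast and 2 of 3 endothelial markers, and 1 each of the ileal enterocyte, B and plasma cell and T cell lists. The 3 were enterocyte markers, of 5 in that list. Cd79a, a chain of the B cell receptor, was at 5.35, 4.55 and 3.64 CPM in these mice and at 23.8 to 180.0 CPM in the other WT mice, but Jchain and Mzb1 of the same list were lowest in WT 4. In IKO mice Cd79a was at 5.09 to 19.7 CPM. The part of these cells in the Scd1 values was not tested.

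Scd2, the desaturase best known from brain and early skin development, was higher in 6 of 7 IKO mice than in any WT mouse. Its CPM in WT 1 to WT 7 were 407, 14.1, 110, 133, 118, 68.1 and 247. In IKO 1 to IKO 7 they were 1837, 1074, 1747, 224, 2784, 1716 and 2825. A total of 6 IKO mice lay above the highest WT mouse, and IKO 4 lay within the WT range, below WT 1 and WT 7. The mean was 157 ± 131 CPM in WT and 1744 ± 915 CPM in IKO mice (SD, n = 7 each), with a log2 fold change of 3.48 (SE 0.63, 95% confidence interval 2.10 to 4.86) or 11.1-fold (edgeR, adjusted p = 0.00621). By fold change toward higher levels in IKO mice, Scd2 ranked 16 from the top of all genes tested. Without IKO 4 the genotypes no longer overlapped, with the lowest IKO mouse at 2.64 times the highest WT mouse, and the log2 fold change was 3.68 (SE 0.57, edgeR adjusted p = 0.00230). Scd2 lies at chr19:44293676-44306864 on the plus strand.

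The fitted fold changes of Scd1 and Scd2 stayed past the threshold in all 25 alternative fits, from 4.82 to 6.66 for Scd1 and from 3.28 to 3.90 for Scd2 on the log2 scale. Their adjusted p over those fits was at most 0.0163 and 0.0265. When the 4 Scd genes were summed to 1 row before the fit, which removes any splitting of reads among them, the log2 fold change was 4.01 (SE 0.65, edgeR adjusted p = 0.00322).

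Scd4, a desaturase described in heart, and Scd3, described in skin and Harderian gland, were close to the limit of detection. Scd4 received 82 counts in the 7 WT and 127 in the 7 IKO mice. Its CPM were 0.571 ± 0.770 (SD, n = 7) in WT, with 2 mice at 0 and WT 4 highest at 2.14, and 1.07 ± 0.67 (SD, n = 7) in IKO mice. All 7 IKO mice were above the WT median, but the ranges overlapped and the log2 fold change was 0.91 (SE 0.77, 95% confidence interval -0.77 to 2.59, edgeR adjusted p = 0.441). It was 1.81 (SE 0.73) without WT 4, with an edgeR adjusted p of 0.132. Limma-voom with sample quality weights gave 3.44 (SE 0.77) and did call the gene (limma, adjusted p = 0.00929). Over the 22 alternative fits its adjusted p ranged from 0.00929 to 0.663. Scd4 lies at chr19:44333092-44346743 and Scd3 at chr19:44203288-44244016, both on the plus strand. Scd3 received 6 counts in all WT and 13 in all IKO libraries, with 0 counts in 4 WT and 2 IKO mice. A count of 0 allows a level of up to 0.106 to 0.328 CPM, depending on the library, for counting error only. A difference in Scd3 was not detectable at this depth, and Scd1, with which it shares stretches of sequence, reached 64272 counts in 1 IKO library.

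**Figure D2:**
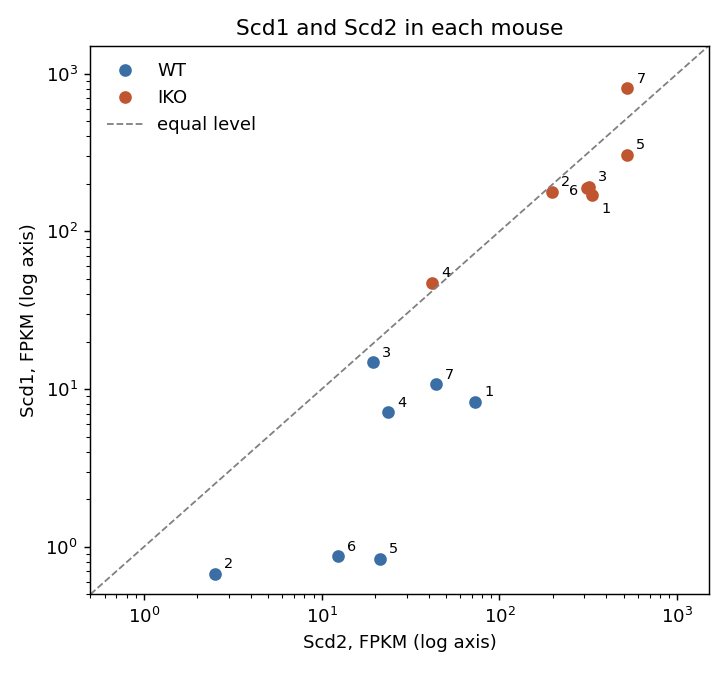
FPKM of Scd1 (vertical) against Scd2 (horizontal), both on log axes, with 1 numbered point per mouse, WT in blue and IKO in orange, and a dashed line of equal level. All WT points lie below the line, whereas IKO 4 and IKO 7 lie above it.

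The balance of the pair was compared per length, in FPKM within each mouse. The ratio of Scd1 to Scd2 was 0.114, 0.268, 0.758, 0.301, 0.0395, 0.0699 and 0.245 in WT 1 to WT 7. In IKO 1 to IKO 7 it was 0.509, 0.905, 0.602, 1.14, 0.589, 0.604 and 1.55. Scd2 was thus the more abundant of the pair in all 7 WT mice and in 5 of 7 IKO mice, and WT 3 was the one WT mouse within the IKO range. Scd1 made up 3.80% to 42.8% of the summed Scd FPKM in WT and 33.7% to 60.7% in IKO mice. Scd3 and Scd4 together made up at most 1.84% in any mouse. All 4 genes together took up to 0.594% of the counts of a library in IKO mice and up to 0.0591% in WT mice.

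Fads1 and Fads2, which carry out the desaturation steps toward arachidonate, were not called. Fads2 CPM in WT 1 to WT 7 were 40.4, 2.32, 12.2, 10.3, 16.3, 18.8 and 31.2. In IKO 1 to IKO 7 they were 20.7, 16.9, 43.9, 27.5, 35.0, 13.4 and 20.1. A total of 6 IKO mice were above the WT median, but 1 IKO mouse was above the highest WT mouse. The mean was 18.8 ± 13.0 CPM in WT and 25.4 ± 10.9 CPM in IKO mice (SD, n = 7 each), with a log2 fold change of 0.43 (SE 0.44, 95% confidence interval -0.53 to 1.39, edgeR adjusted p = 0.530). It lies at chr19:10064164-10101503 on the minus strand. It was counted on a model of 1508 bases, whereas the exons of the gene span 3295 bases in GENCODE M21.

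Fads1 CPM in WT 1 to WT 7 were 8.78, 2.58, 8.16, 34.1, 4.24, 6.50 and 8.46. In IKO 1 to IKO 7 they were 9.94, 8.13, 8.42, 2.40, 7.38, 5.97 and 5.72. WT 4 stood highest and IKO 4 lowest, and the other mice of both genotypes lay between 2.58 and 9.94 CPM. The log2 fold change was -0.60 (SE 0.47, 95% confidence interval -1.62 to 0.42, edgeR adjusted p = 0.401). Its sign turned without WT 4, to 0.09 (SE 0.33, edgeR adjusted p = 0.879). Without WT 4 and IKO 4 it was 0.23 (SE 0.28, edgeR adjusted p = 0.624). The gene lies at chr19:10182888-10196870 on the plus strand.

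Fads3 lies in the same cluster as Fads1. Its CPM in WT 1 to WT 7 were 3.64, 0.709, 3.13, 12.6, 1.73, 2.82 and 4.32, and WT 4 was again the highest. In the IKO mice they ranged from 1.09 in IKO 4 to 3.97, with a median of 2.59 CPM. The log2 fold change was -0.62 (SE 0.49, 95% confidence interval -1.68 to 0.44, edgeR adjusted p = 0.399), and it was -0.02 (SE 0.38, edgeR adjusted p = 0.978) without WT 4. Fads3 lies at chr19:10041548-10059671 on the plus strand.

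**Figure D3:**
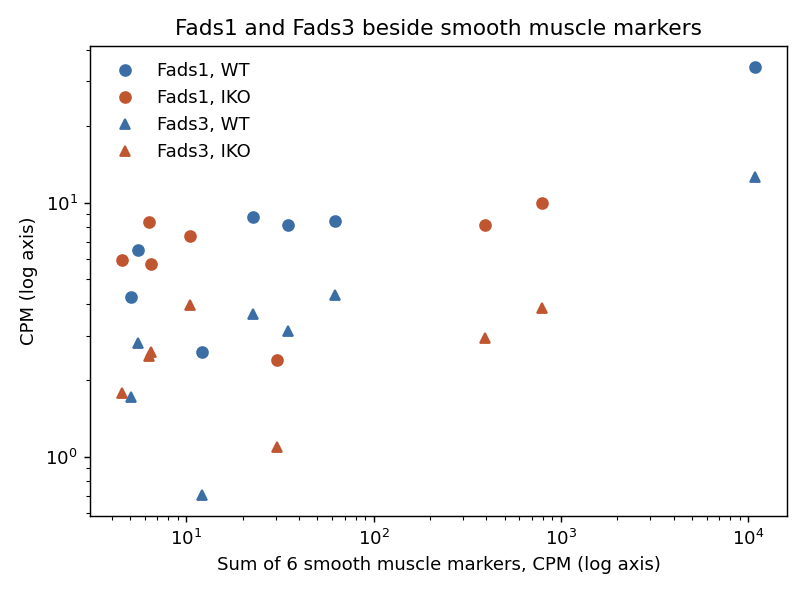
CPM of Fads1 (circles) and Fads3 (triangles) against the summed CPM of 6 smooth muscle markers, both on log axes, with 1 point of each shape per mouse, WT in blue and IKO in orange. The WT mouse at the far right is WT 4, with 10860 CPM of markers, 34.1 CPM of Fads1 and 12.6 CPM of Fads3.

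WT 4, the mouse with the highest Fads1 and Fads3, also had the highest levels of muscle, fibroblast and glial markers. Its 6 smooth muscle markers, among them Des and Myh11, summed to 10860 CPM, against 5.08 to 62.4 CPM in the other WT mice and 4.53 to 796 CPM in IKO mice. Its 6 fibroblast markers summed to 354 CPM, against 6.28 to 62.9 CPM in the other WT and 8.32 to 44.7 CPM in IKO mice. Its 5 glia and neuron markers summed to 60.5 CPM, against at most 3.26 and 4.74 CPM in the other WT and in the IKO mice. Without WT 4, the means of Fads1 were 6.45 ± 2.54 CPM (SD, n = 6) in WT and 6.85 ± 2.44 CPM (SD, n = 7) in IKO mice. Those of Fads3 were 2.72 ± 1.31 CPM (SD, n = 6) and 2.68 ± 1.04 CPM (SD, n = 7). The part of these cells in the Fads1 and Fads3 values was not tested.

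**Figure D4:**
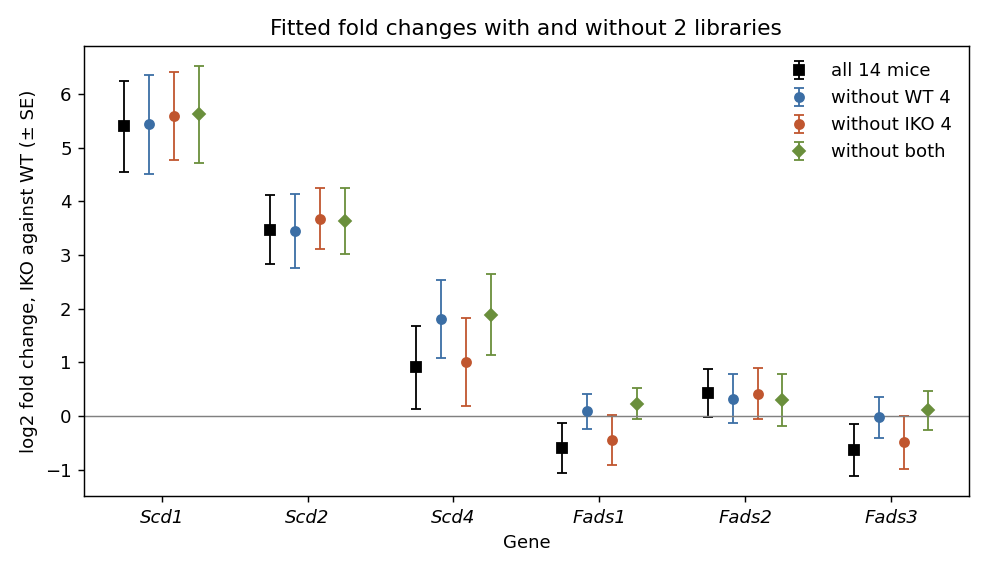
Fitted log2 fold change of IKO against WT (vertical axis, bars ± SE) for the 6 members tested, over all 14 mice and without WT 4, without IKO 4 or without both. Scd1 stays between 5.40 and 5.62 and Scd2 between 3.44 and 3.68, whereas Fads1 moves from -0.60 to 0.09 and Scd4 from 0.91 to 1.81 when WT 4 is left out.

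Fads6 lies apart from the others on chromosome 11 (chr11:115279622-115297663, minus strand) and was rare in both genotypes. It received 85 counts in WT and 27 in IKO mice, and it did not pass the filter. Its CPM were 0.572 ± 0.261 in WT and 0.256 ± 0.161 in IKO mice (SD, n = 7 each). All 7 IKO mice were at or below the WT median, and 2 were below the lowest WT mouse. With the filter removed the log2 fold change was -1.17 (SE 0.56, edgeR adjusted p = 0.243), and DESeq2 gave -1.20 (SE 0.53, DESeq2 adjusted p = 0.0986).

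The order of the members by level was compared per length, in FPKM. In WT mice the medians were 21.3 for Scd2, 10.7 for Fads2, 7.14 for Scd1, 2.27 for Fads1, 0.921 for Fads3 and 0.0870 for Fads6, and Scd3 and Scd4, with mice at 0, were not placed. In IKO mice they were 319 for Scd2, 189 for Scd1, 13.6 for Fads2, 2.17 for Fads1, 0.802 for Fads3, 0.219 for Scd4 and 0.0354 for Fads6. By these medians Scd1 stood below Fads2 in WT and above it in IKO mice. The WT order of this pair depended on the length used, since with the exon lengths of GENCODE M21 the WT median was 4.88 for Fads2 and 7.06 for Scd1. Neighbours in these orders were compared within mice as log2(FPKM + 0.01), with exact two-sided sign-flip permutation tests over 11 pairs, for which the smallest possible p is 0.0156. The pairs and their directions come from the same medians, so these p-values are a description. In WT mice, Scd2 was above Fads2 (mean difference 1.07 ± 0.59 log2 FPKM, SD, in 6 of 7 mice, exact permutation test, adjusted p = 0.0430). Fads2 and Scd1 did not differ beyond their spread (1.45 ± 1.78, 5 of 7 mice, exact permutation test, adjusted p = 0.115), nor did Scd1 and Fads1 (0.64 ± 1.52, 3 of 7 mice, exact permutation test, adjusted p = 0.281). Fads1 was above Fads3 and Fads3 above Fads6 in all 7 WT mice (exact permutation test, adjusted p = 0.0287 for each).

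In IKO mice the leading pair, Scd2 and Scd1, did not differ beyond their spread (0.36 ± 0.60 log2 FPKM, SD, 5 of 7 mice, exact permutation test, adjusted p = 0.172). Scd1 was above Fads2 in 7 of 7 IKO mice by 3.68 ± 1.41 log2 FPKM. The IKO level of Scd1 is part of the fold changes by which the family was chosen, so no p is given for this pair. Fads2 was in turn above Fads1 by 3.08 ± 0.90 in 7 of 7 mice (exact permutation test, adjusted p = 0.0287). Fads1 was above Fads3 and Scd4 above Fads6 in 7 of 7 IKO mice (exact permutation test, adjusted p = 0.0287 for each), and Fads3 above Scd4 in 6 of 7 (exact permutation test, adjusted p = 0.0430). Scd4 was placed in IKO mice only, where it had counts in every mouse. The distance from Fads1 to Fads3 was 1.25 ± 0.26 log2 FPKM in WT and 1.27 ± 0.32 in IKO mice (SD, n = 7 each). The summed FPKM of the Scd genes was 0.877 to 3.15 times that of Fads1, Fads2 and Fads3 in WT and 4.56 to 83.5 times in IKO mice.

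Mice of 1 genotype were then compared among themselves, which does not use the difference between genotypes. Over 14 relations, the log2 CPM (prior count 2) of Scd1 and Scd2 correlated across the 7 IKO mice (Pearson r = 0.88, exact permutation p = 0.00337, adjusted p = 0.0472; Spearman rho = 0.79, exact permutation p = 0.0480, adjusted p = 0.309). The r was 0.78 without the 2 mice farthest from the median of Scd1 (exact permutation, adjusted p = 0.752). It was 0.73 without IKO 4 (exact permutation, adjusted p = 0.444). The call was thus lost in both cases, where fewer mice also weaken an exact p. No other mouse was left out alone. In WT mice, Scd1 fell into separate ranges, 3.35 to 4.22 CPM in 3 mice and 35.4 to 74.2 CPM in 4, too few for a correlation within each, so no r of Scd1 within WT mice is given.

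No other relation passed. Srebf1, whose product is the transcription factor SREBP-1c, had an r with Scd1 of 0.77 in IKO mice (exact permutation p = 0.0716, adjusted p = 0.201; rho 0.32, exact permutation p = 0.498, adjusted p = 0.712), and 0.32 without IKO 4. With Scd2 in IKO mice its r was 0.90 (exact permutation p = 0.0296, adjusted p = 0.197; rho 0.75, exact permutation p = 0.0663, adjusted p = 0.309), and 0.41 without IKO 4. In WT mice the r of Srebf1 was below 0, at -0.56 with Scd2 (exact permutation p = 0.186, adjusted p = 0.326; rho -0.21, exact permutation p = 0.662, adjusted p = 0.712) and -0.64 with Fads2 (exact permutation p = 0.115, adjusted p = 0.254; rho -0.54, exact permutation p = 0.236, adjusted p = 0.660). Fads1 and Fads2 had an r of 0.35 in WT and of -0.002 in IKO mice (exact permutation p = 0.398 and 0.997, adjusted p = 0.557 and 0.997; rho 0.36 and 0.21, exact permutation p = 0.444 and 0.662, adjusted p = 0.712 for each). Whether the relations differ between genotypes was not tested.

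The genes most like each member over the 14 mice, after each genotype was centred on its mean, are given as a description, since the points share library depth and cell content and, for Scd1, include the WT mice in separate ranges. For Scd1 they were Cilp (r = 0.96), Cpxm1, Fcmr, Serpina3n and Fcrl1 (r = 0.93), and Cilp and Fcmr were also among the 5 without IKO 4. Without WT 4, 2 of the 5 stayed for Scd1, 2 for Scd2 and 4 for Fads2. Fcmr and Fcrl1 encode receptors of B cells. For Scd2 they were Agpat5 (r = 0.91), Cyp20a1, Srebf2, Sqle and Stk26, and 0 of these 5 stayed among the 5 without IKO 4. Srebf2 and Sqle belong to sterol synthesis. For Fads1 they were Chpf (r = 0.96), Fads3 (r = 0.96), Adgra2, Adgrf5 and Pls3, of which Fads3 stayed among the 5 without IKO 4, and Chpf, Fads3 and Adgra2 without WT 4. The r of Fads1 and Fads3 was 0.92 without WT 4 and IKO 4. For Fads2 they were Gart (r = 0.97), Paip2b, Polr2m, Cenpp and Acly (r = 0.95), of which Gart, Paip2b and Cenpp remained without IKO 4. Acly encodes ATP citrate lyase, the source of cytosolic acetyl-CoA.

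The genes that work before and after the desaturases were read from the same edgeR fit, in 6 lists written from general biochemical knowledge. The lists were chosen with earlier results of these data known, so their counts are a description. Beside each list stand the values over all genes tested, with 4.38% called higher, 4.28% lower and a median log2 fold change of -0.09. Of 17 genes of lipogenesis and its regulators, 16 were tested. Of these, 8 were called higher and 0 lower, with a median log2 fold change of 0.64. Me1, the malic enzyme that supplies NADPH, had the largest change, with 18.7 ± 8.07 CPM in WT and 83.9 ± 39.9 CPM in IKO mice (SD, n = 7 each), and no overlap (log2 fold change 2.16, SE 0.34, edgeR adjusted p = 0.00257). Srebf1 rose by 1.64 (SE 0.29, edgeR adjusted p = 0.00560), and Insig1 and Insig2, which hold SREBP precursors in the endoplasmic reticulum, by 1.57 and 1.15 on the log2 scale. Acaca and Acacb, the acetyl-CoA carboxylases, rose by 0.92 and 1.55 without overlap between the genotypes. Mid1ip1 rose by 0.93 and Acss2 by 0.70. Of these 8 genes, Srebf1, Insig2, Acaca and Me1 were called in all 25 alternative fits, whereas Acss2 was called in 11.

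Fasn, the fatty acid synthase that makes the palmitate used by Scd1, did not pass the test, with a log2 fold change of 0.57 (SE 0.27, edgeR adjusted p = 0.166). Srebf2 had a log2 fold change of 0.42 (SE 0.24, edgeR adjusted p = 0.247). The LXR gene Nr1h3 was at 82.1 ± 22.2 CPM in WT and 52.4 ± 18.8 CPM in IKO mice (SD, n = 7 each), with a log2 fold change of -0.65 (SE 0.22, edgeR adjusted p = 0.0751), and 3 of 25 alternative fits called it, leaving out IKO 2 among them. In comparison with Scd1 and Scd2, the fold changes of this list were smaller, none above 2.16 on the log2 scale.

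**Figure D5:**
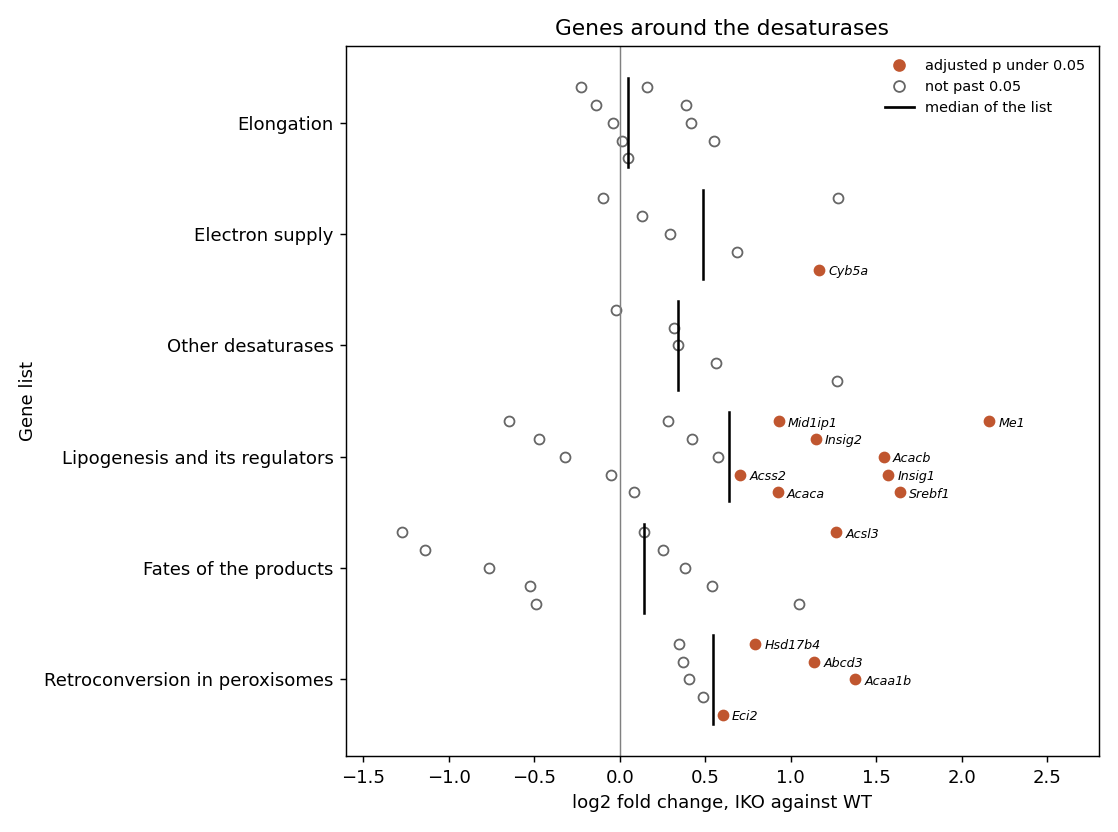
Fitted log2 fold change of IKO against WT (horizontal axis) of the tested genes of 6 lists (rows), filled in orange and named where the edgeR adjusted p was under 0.05, open where not, with a black bar at the median of the list. Lipogenesis holds 8 filled points and the peroxisomal list 4, all to the right of 0, and elongation holds 0.

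The elongases, which lengthen acyl chains before and after desaturation, were not called. Of 13 elongation genes, 9 were tested, 0 were called and the median log2 fold change was 0.05. Elovl1, which makes very long saturated chains, had the largest value, 0.55 (SE 0.22, edgeR adjusted p = 0.117), and it was called without IKO 4. Elovl6, which lengthens palmitate to stearate, was at 66.1 ± 19.4 CPM in WT and 73.8 ± 16.8 CPM in IKO mice (SD, n = 7 each), with a log2 fold change of 0.16 (SE 0.20, edgeR adjusted p = 0.611). Elovl5, which acts between FADS2 and FADS1, had a log2 fold change of 0.39 (SE 0.26, edgeR adjusted p = 0.323). Elovl3 had 0 counts in every library.

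Of the 7 genes that supply electrons, 6 were tested and 1 was called. Cyb5a, the microsomal cytochrome b5 that passes electrons to the SCD enzymes, rose from 178 ± 67.4 to 399 ± 107 CPM (SD, n = 7 each), with a log2 fold change of 1.17 (SE 0.24, edgeR adjusted p = 0.0116), and it was called in all 25 alternative fits. Por, the reductase of microsomal cytochromes P450, had 1.28 (SE 0.41, edgeR adjusted p = 0.0609) and Cyb5b 0.69 (SE 0.22, edgeR adjusted p = 0.0589). The count became 3 without WT 5 and 2 without WT 6 or without IKO 4. Of 5 other desaturases, which act on ceramides, ether lipids and sterols, 0 were called and the median was 0.34. The sterol enzyme Msmo1 had 1.27 (SE 0.40, edgeR adjusted p = 0.0562), and the count was 1 without IKO 4 or without WT 1.

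The genes that use the products were mixed. Of 13, 11 were tested, 1 was called higher and 0 lower, with a median log2 fold change of 0.14. The called gene was Acsl3, an acyl-CoA synthetase of lipid droplets (1.27, SE 0.37, edgeR adjusted p = 0.0455), and it was called in 9 of 25 alternative fits and lost when any 1 of 11 mice was left out. Lpcat3, which places polyunsaturated acyl chains in phospholipids, had 1.05 (SE 0.33, edgeR adjusted p = 0.0578). Pla2g4a, the phospholipase that releases arachidonate, had -1.14 (SE 0.41, edgeR adjusted p = 0.0845), and Ptgs1, which turns it into prostaglandins, -1.27 (SE 0.50, edgeR adjusted p = 0.109), but -0.31 (SE 0.24, edgeR adjusted p = 0.401) without WT 4, which had 44.0 CPM of it against a WT median of 5.64 CPM. Pla2g4a was called in 4 of 23 alternative fits, those without WT 2 or IKO 3 among them. The count of higher genes was 2 without IKO 4.

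The peroxisomal genes that shorten very long polyunsaturated fatty acids gave the next largest count. Of 9 genes read, 8 were tested, and 4 were called higher and 0 lower, with a median log2 fold change of 0.54. Over all genes tested, 4.38% were called higher. Hsd17b4, the bifunctional enzyme, had 252 ± 76.8 CPM in WT and 436 ± 66.7 CPM in IKO mice (SD, n = 7 each), with a log2 fold change of 0.79 (SE 0.20, edgeR adjusted p = 0.0273). The thiolase gene Acaa1b had 1.38, the transporter gene Abcd3 1.14 and the enoyl-CoA isomerase gene Eci2 0.60. Acaa1b was called in all 25 alternative fits and Hsd17b4 in 16. The count was 2 without WT 7, IKO 1 or IKO 5 and with no filter on low counts. Acaa1b and Acaa1a are close paralogs, whose reads may have been split.

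The genes around the 2 clusters on chromosome 19 gave smaller differences than Scd1 and Scd2. Within 500000 bases of the Scd cluster, 13 other genes were tested, with log2 fold changes from -0.32 to 0.82 and a median of 0.26. Of these, 1 was called, Hif1an (0.49, edgeR adjusted p = 0.0471). Within 500000 bases of the Fads cluster (chr19:10041548-10196870), 18 other genes were tested, from -1.48 to 0.52, and Vwce was called lower (-1.48, edgeR adjusted p = 0.0334). Both were named after their values were seen. The genes that overlap a member were 2 microRNA genes, Mir5114 in Scd2 and Mir6993 in Fads1, and both had 0 counts in all libraries.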

How the data were processed

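Ileal mucosa RNA of 14 mice (7 WT, 7 IKO) was sequenced by the authors as 150-bp paired-end NovaSeq reads from NEBNext Ultra libraries, aligned with HISAT2 2.0.5 and counted with featureCounts 1.5.0-p3 on mm10, per the submitters' processing notes. The strand setting and the handling of reads with several matches are not given in the sources used here. The deposited counts are not normalized. The deposited FPKM equal counts per kilobase divided by the DESeq2 size factor times 1 constant. Groups come from the sample titles, and the column headers of the deposited values write IKO as KO.

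After filterByExpr and TMM, genes were tested with edgeR 4.0.16 (quasi-likelihood, genotype only) in R 4.3.3, with Benjamini-Hochberg adjustment over 13846 genes. At an unadjusted p under 0.05, 4213 genes passed. The SE is the log2 fold change divided by the square root of F, and intervals use 12 degrees of freedom. The fit was tested on simulated data. It called 35.6% of the genes changed by 1 and 82.9% of those changed by 2 on the log2 scale. Of its calls, 3.15% were false. Alternatives were DESeq2 1.42.0, RLE, other filters, limma 3.58.1 on log2 FPKM, mitochondrial genes left out, voom with sample quality weights, a block on the sample number, and leaving out each mouse. Leaving out WT 4 and IKO 4 together was added after seeing the data, as were GENCODE M21 lengths for the order of levels and the most alike genes without WT 4. Each library is 1 mouse. The members, the gene lists and the tests were chosen with earlier results of these data known. Genes named are the members, Ncor1, members of the 6 lists, cell type markers, the 5 genes most like Scd1, Scd2, Fads1 and Fads2, and, by position, called or overlapping genes near the 2 clusters. A gene of 1 list and 1 marker are not reported here, and counts and sums are without them. Sequences and exons are those of GENCODE M21 (GRCm38), of the same build as mm10. Same-numbered WT and IKO mice did not deviate together (correlations of -0.31 to 0.23), so numbers were not taken as pairs.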

Additional observations from a re-analysis of the deposited data

Results flagged for a closer look

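In 12 groups of 7 log2 CPM values, the 6 members tested in each genotype, 2 had a mouse far from the others by Dixon's ratio, where chance alone gives about 1 in 20 groups. Both were IKO 4. For Scd2, its gap to the next IKO mouse was 0.618 of the range of the IKO mice, at 224 CPM against 1074 to 2825 CPM in the other 6. For Fads1, the gap was 0.607 of the range, at 2.40 CPM against 5.72 to 9.94 CPM. In the same library, mitochondrially encoded genes took 50.3% of the counts. Its part in the low values of Scd2 and Fads1 was not tested.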

How the results depend on the processing

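Among the members, Scd1, Scd2 and Fads2 kept their direction and their side of the threshold in 25 of 25 alternative fits, and Scd4 in 21 of 22, being called by limma-voom with sample quality weights (3.44). Fads1 turned positive with those weights (0.0370), with WT 4 left out (-0.763 to 0.0904 over single mice left out) and with WT 4 and IKO 4 left out (0.233). Fads3 turned positive without both (0.106). The causes were not tested. The correlation of Scd1 and Scd2 in IKO mice fell to 0.73 without IKO 4 and was no longer called. In IKO mice, that of Fads1 and Fads2 turned from -0.002 to 0.0212 on log2(FPKM + 1) and to 0.36 without IKO 4, and that of Scd1 and Fads2 from -0.10 to 0.0341 without IKO 4. Library scaling cancels in the order of neighbouring members within a mouse, so TMM CPM is no check of it. GENCODE M21 exon lengths, chosen after seeing the data, were applied to the same 11 pairs, without a new ranking. Their mean differences kept their sign and their side of the threshold. For Fads2 against Scd1 in WT mice the mean difference fell from 1.45 to 0.34, and the medians of this pair changed order.

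Over all genes, 1200 were called (607 higher, 593 lower). DESeq2 called 2578 (1191 and 1387), no filter 508 (346 and 162), limma on log2(FPKM + 1) 328 lower, with a pseudocount of 0.1 317 lower, without a filter 614 in all and 160 lower, and limma-voom with weights 1889 (993 and 896). With each mouse left out, the totals were 515 to 1371, with 335 to 684 higher and 180 to 687 lower, and without WT 4 and IKO 4 they were 606 (396 and 210). The sample number as a replicate block gave 362 (226 and 136), while Scd1 (5.90) and Scd2 (3.75) stayed called. Same-numbered mice do not correlate as pairs, and 1 of 7 WT mice correlated best with its own number.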
